A study of Mus musculus with 8 samples.

Results

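The conjugating enzymes of liver were described here as 65 genes among the 56691 of the deposited table, taken by symbol: the UDP-glucuronosyltransferases and related glycosyltransferases (Ugt1a, Ugt2a, Ugt2b and Ugt3a), the cytosolic sulfotransferases (Sult) and the soluble glutathione S-transferases (Gst of the alpha, mu, pi, theta, omega, kappa and zeta classes). Another 7 symbols marked as pseudogenes were left out. The rule used gene symbols only, and it was set with earlier results of these data known. The Ugt1a family held 9 of these genes, the Ugt2a, Ugt2b and Ugt3a families 12, the Sult family 21 and the Gst family 23. Of the 65, 42 had enough counts to be tested, and the same filter kept 14533 genes of the whole table.

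The study sequenced liver RNA of C57BL/6J mice of wild-type genotype in 8 libraries. The mice were 6 weeks old and were killed after a short fast, having eaten for 4 weeks the HFD-CDAA diet, which is rich in fat, lacks choline and holds defined amino acids. The diet models fatty liver with inflammation (MASH). The control group, plive-Con, had 4 libraries from mice given a control plasmid by hydrodynamic tail vein injection, which forces plasmid into liver cells. The other group, plive-Tet1, had 4 libraries from mice given by the same route a plasmid for overexpression of Tet1, an enzyme that oxidises 5-methylcytosine. The diet, the strain and the injection were shared by both groups, and a plasmid given in this way enters only some of the liver's cells. In plive-Tet1, the treatment labels of replicates 2, 3 and 4 read Tet2, Tet3 and Tet4 where the titles read Tet1, and the titles were followed. Nothing in the labels ties each library to its own animal, and the spread behind every p-value is that between libraries.

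Library totals ran from 15885113 to 19850800 counts. Tet1 itself collected 1, 9, 6 and 5 counts in the plive-Con libraries and 9, 8, 12 and 5 in those labelled plive-Tet1, so the label was not borne out by reads on the mouse gene, and each direction given here compares libraries by their labels. No source used here says whether the plasmid carries the mouse sequence. Hepatocyte markers were abundant in every library, with a summed level of 43106 to 50577 FPKM (counts scaled to exonic length and to the library total) in plive-Con and 40016 to 50666 FPKM in plive-Tet1. On the first principal component, which held 29.7% of the variance, plive-Con 4 lay apart with a score of 35.5 against -17.6 to 10 in the other libraries. In whole liver, fewer cells of a type and less RNA per cell cannot be told apart.

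Conjugation is the second phase of drug and hormone metabolism. UGT enzymes in the endoplasmic reticulum attach glucuronic acid from UDP-glucuronate to bilirubin, steroids, bile acids and drugs. SULT enzymes in the cytosol attach sulfate from the donor PAPS to phenols, catecholamines, steroids and bile acids. GST enzymes join glutathione to electrophiles such as epoxides and lipid aldehydes, or reduce peroxides with it. The products are more soluble in water and leave by bile or urine. Many of the genes answer to the nuclear receptors CAR and PXR, to AHR and to NRF2, and in mouse liver several depend on sex through the pattern of growth hormone.

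The Ugt1a genes have an unusual structure that bears on how their reads can be assigned. On chromosome 1 each has its own first exon, and all join the same later exons. In the GENCODE M21 annotation, exon 2 of all 9 Ugt1a genes was the same interval (GRCm38 chr1:88215044-88215175, plus strand). The coding sequence across the junction is shown for the 4 members with the highest levels, with the last 36 bases of each first exon in lower case and the first 36 bases of the shared exon 2 in capitals.
Ugt1a1: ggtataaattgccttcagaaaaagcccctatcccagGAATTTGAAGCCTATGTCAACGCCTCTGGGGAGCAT
Ugt1a6b: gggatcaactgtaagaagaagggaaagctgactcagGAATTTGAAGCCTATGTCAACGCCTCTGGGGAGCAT
Ugt1a9: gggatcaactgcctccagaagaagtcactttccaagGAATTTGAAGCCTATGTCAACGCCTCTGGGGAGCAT
Ugt1a5: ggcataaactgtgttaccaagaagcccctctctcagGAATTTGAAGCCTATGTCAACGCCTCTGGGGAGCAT

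Of the 36 bases of the first exon shown, Ugt1a6b shared 18 with Ugt1a1, Ugt1a9 shared 27 and Ugt1a5 shared 26, while the part in capitals was identical in all. Between 49.1% and 65.4% of the 150-base windows of the 9 Ugt1a genes' transcripts occurred in another of them. Reads from the shared exons cannot be given to one Ugt1a gene, and no source used here says how the counting treated them, so the Ugt1a values are uncertain. Among the other genes, Ugt2a1 and Ugt2a2 shared 67.1% and 67.3% of their windows with each other. Sharing came to 17.6% of the windows of Gstp1 and 32.2% of those of Gstp2, which share with each other, to 14.9% of Gsta1 and 11% of Gsta2, and to 19.5% of Ugt2b5 and 19.2% of Ugt2b38. The 7 Gstm genes shared no window of this length, although they are close relatives.

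Promoter windows (250 bases before to 50 after the start, RefSeq, GRCm38.p6) were available for 56 of the 65 genes. Those of 3 genes are shown because their levels followed 2 opposite patterns across the libraries, described with the values: Ugt2b5 and Ugt2b36 were lowest in plive-Con 4, and Gsta3 was highest there. Capitals mark a match to TTGCNNAA or its reverse complement, a C/EBP-like motif, in the first 2 windows, and a match to TGACNNNGC, the core of the antioxidant response element bound by NRF2, in the third.
Ugt2b5 (chr5:87140291-87140590, minus strand): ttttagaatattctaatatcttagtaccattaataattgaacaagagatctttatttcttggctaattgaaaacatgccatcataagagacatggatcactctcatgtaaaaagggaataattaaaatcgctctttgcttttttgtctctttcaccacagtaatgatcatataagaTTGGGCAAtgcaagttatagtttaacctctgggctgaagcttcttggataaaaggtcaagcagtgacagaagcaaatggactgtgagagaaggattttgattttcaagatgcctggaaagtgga
Ugt2b36 (chr5:87092506-87092805, minus strand): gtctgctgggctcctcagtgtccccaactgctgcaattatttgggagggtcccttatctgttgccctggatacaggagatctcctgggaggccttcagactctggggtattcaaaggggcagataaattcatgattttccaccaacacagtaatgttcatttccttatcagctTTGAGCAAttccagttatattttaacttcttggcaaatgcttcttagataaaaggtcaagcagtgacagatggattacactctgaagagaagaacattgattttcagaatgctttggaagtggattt
Gsta3 (chr1:21240335-21240634, plus strand): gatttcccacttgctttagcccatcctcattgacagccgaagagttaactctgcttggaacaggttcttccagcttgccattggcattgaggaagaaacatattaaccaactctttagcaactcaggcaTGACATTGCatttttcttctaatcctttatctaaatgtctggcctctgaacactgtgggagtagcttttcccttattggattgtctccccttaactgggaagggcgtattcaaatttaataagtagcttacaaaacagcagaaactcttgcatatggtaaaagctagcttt

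The match in Ugt2b5 began at position -74 from the start and that in Ugt2b36 at -77, and the antioxidant element of Gsta3 began at -121. On either strand, the C/EBP-like motif occurred in 13 of the 67 windows of these genes (19.4%) and in 10.8% of all 32851 windows. The antioxidant element occurred in 3 of the 67 (4.48%), those of Gsta3, Gstm5 and Gstm7, and in 12.4% of all windows. The motif GTTAAT, part of the HNF1 site, occurred in 14 of the 67 (20.9%) and in 7.1% of all windows. Among its carriers were Ugt1a1, Ugt1a9, Ugt2a3, Ugt3a1 and Sult1a1. Sult2a4, Sult2a6 and Sult3a2, which had no counts in any library, carried it too. The window of Gsta3 held all 3 motifs at places that do not overlap. Whether the motifs bear on the 2 patterns was not tested, and genes with and without each of the 2 shown motifs were found in both. Ugt2a3 and Ugt2b1, also lowest in plive-Con 4, held the C/EBP-like motif. Ugt2b34, Ugt2b35, Ugt2b37, Ugt2b38 and Ugt3a1 were lowest there without a match. Gstm7 held the antioxidant element and was lowest there, while Gstt3, Gsto1, Gstz1 and Sult1a1 were highest there without it. Gstm5 held that element and was lowest in plive-Tet1 4. The motifs are matches of letters, and binding was not measured.

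Levels are compared between genes in FPKM, which is corrected for exonic length. All 8 libraries held reads of 47 of the 65 genes, and 40 had a mean of at least 1 FPKM, from 1.098 FPKM for Ugt2b38 to 1450.4 FPKM for Gstm1. Gstm1, a mu class enzyme, was the most abundant at 1241 to 1765 FPKM, followed by the pi class enzyme Gstp1 at 401 to 552 FPKM. These ranges did not overlap. The next by mean were Ugt2b5 at 276, Gstm3 at 264, Gsta3 at 222, Ugt2b36 at 182 and Sult1a1 at 172 FPKM. Their ranges overlapped, since the lowest library of each lay under the highest library of the next. Each also changed places with the next in some library. Ugt2b5 was above Ugt2b36, and Gsta3 above Sult1a1, in every library. Gstm3, at 168 to 433 FPKM, enclosed the 197 to 341 FPKM of Ugt2b5 and reached into the range of Gstp1. Within every library Gstp1 was above Gstm3.

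**Figure D1:**
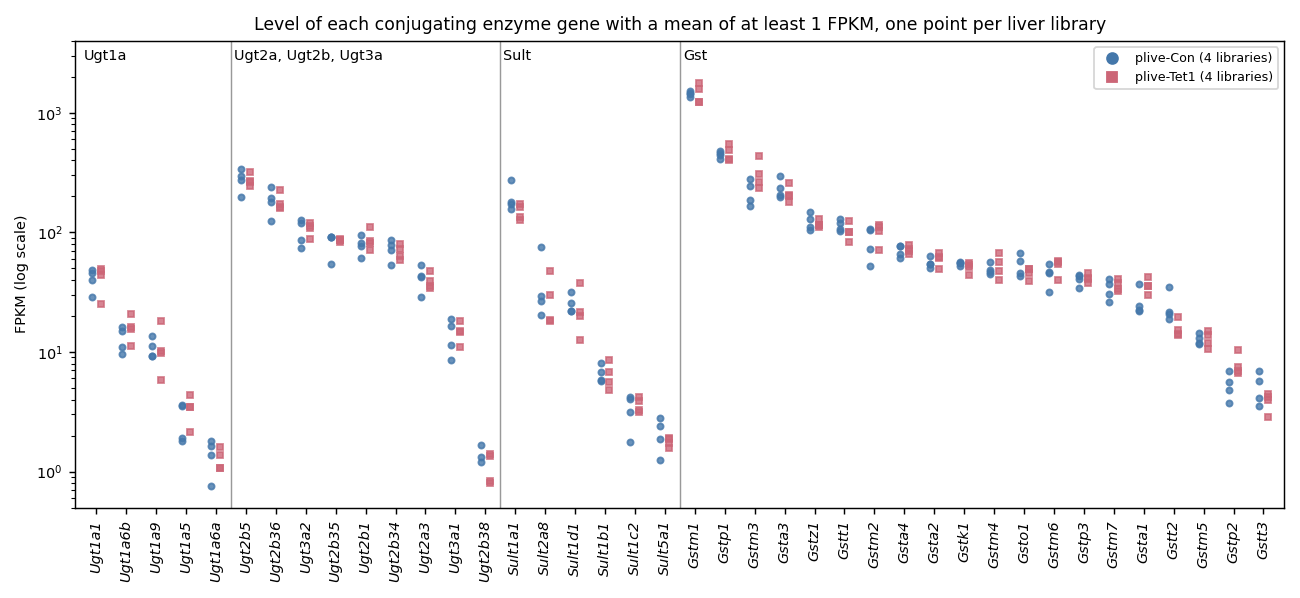
FPKM (log scale) of the 40 conjugating enzyme genes with a mean of at least 1 FPKM, ordered by level within each family; each point is 1 library, circles for plive-Con and squares for plive-Tet1 (4 each). Gstm1 stands above the rest at 1241 to 1765 FPKM, and the circles and squares of each gene overlap in range.

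A few genes made up most of each family's summed level. Gstm1 supplied 46.0% ± 0.935 of the summed GST FPKM in plive-Con and 44.7% ± 1.88 in plive-Tet1 (SD, n = 4 each), and Gstp1 14.3% ± 0.630 and 14.3% ± 0.165. Sult1a1, the phenol sulfotransferase, supplied 71.6% ± 9.83 and 70.6% ± 5.25 of the summed SULT level. Ugt1a1, the enzyme that conjugates bilirubin, supplied 58.9% ± 4.77 and 56.7% ± 3.66 of the Ugt1a sum. Ugt2b5 supplied 32.5% ± 0.909 and 32.0% ± 0.885 of the Ugt2a, Ugt2b and Ugt3a sum. The summed level of all 65 genes was 4341 ± 223 FPKM in plive-Con and 4388 ± 393 FPKM in plive-Tet1, with overlapping ranges of 4176 to 4647 and 3954 to 4896.

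No conjugating enzyme passed the test between the groups. By the quasi-likelihood test of edgeR, with Benjamini-Hochberg adjustment over the 14533 tested genes, 0 of the 42 tested genes had an adjusted p under 0.05, and the share of all tested genes called was 0%. Each of the 42 had an adjusted p of 1. DESeq2 called 0 of the 42 and 11 of all genes (0.0757%), and limma voom called 0 of either. At an unadjusted p under 0.05 stood 5 of the 42 (11.9%) against 591 of all genes (4.07%): Gstt2 and Sult1a1 with lower values in plive-Tet1 (2.16% of all genes), and Gstp2, Gstm3 and Gsta1 with higher values (1.91%). Groups whose FPKM ranges lay fully apart were found in 0 of the 42 and in 372 of all genes (2.56%). In CPM, the counts divided by TMM-scaled library sizes, they did not overlap in 1 of the 42, Gstp2, which was higher, and in 331 of all genes (2.28%, with 1.3% higher).

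The estimates also set bounds. As plive-Tet1 over plive-Con, the median log2 fold change was -0.04 over the 42 genes, with 17 higher and 25 lower values, and 0.01 over all tested genes, of which 51.96% were higher. By family it was 0.03 in the 6 Ugt1a genes, -0.06 in the 10 Ugt2 and Ugt3 genes, -0.23 in the 6 Sult genes and -0.02 in the 20 Gst genes. Leaving out 1 library at a time gave medians of -0.03 to 0.23, -0.20 to 0.07, -0.40 to -0.02 and -0.11 to 0.03 in that order. The 95% interval of a gene reached a median of 0.41 to either side, and in 38 of the 42 it lay inside ±1 on the log2 scale, that is within a change of 2-fold. The intervals of Sult2a8, Gstt2, Ugt2b37 and Ugt2b38 reached beyond.

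**Figure D2:**
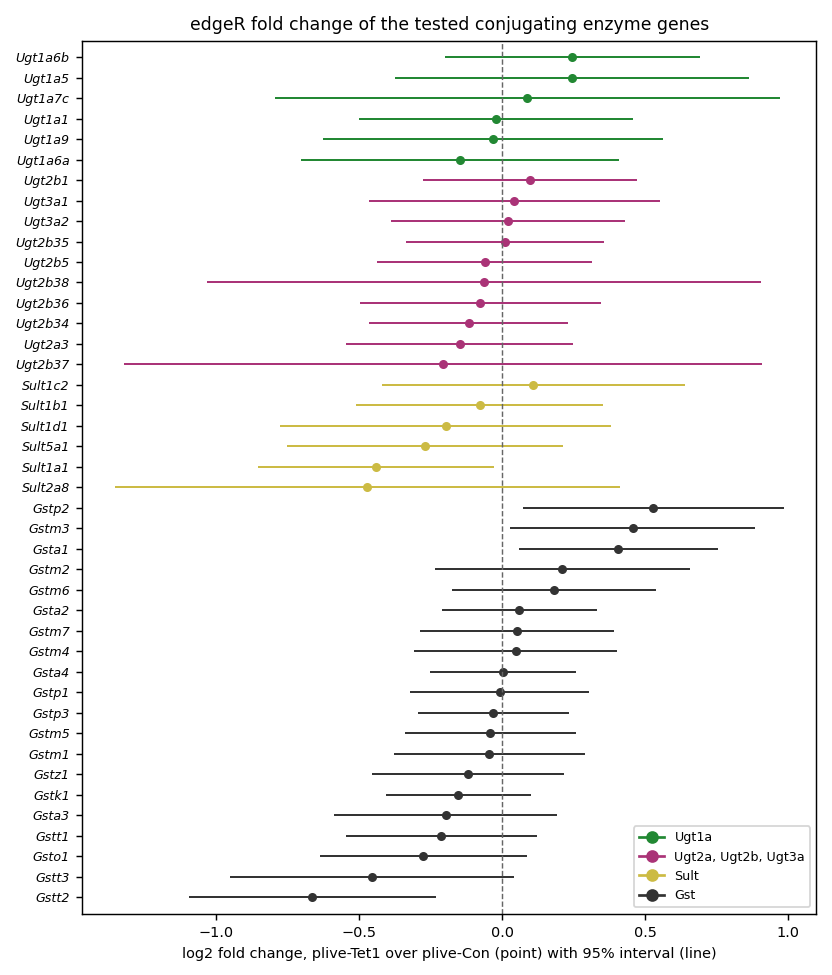
edgeR log2 fold change of plive-Tet1 against plive-Con (points), with 95% intervals (lines) of the 42 tested conjugating enzyme genes, coloured by family. Intervals of 37 genes cross 0; the 5 that do not belong to Gstp2, Gstm3, Gsta1, Sult1a1 and Gstt2, and none of these passed the adjusted threshold.

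Among the bilirubin and phenol conjugating Ugt1a enzymes, the values of the 2 groups were alike in mean and wide in spread. Values of single libraries are given from here on in the order of replicates 1 to 4. Ugt1a1 (ENSMUSG00000089960, GRCm39 chromosome 1, 88139681 to 88146719, plus strand) measured 45.4, 28.8, 48.0 and 40.2 FPKM in plive-Con and 25.4, 43.9, 49.1 and 47.9 FPKM in plive-Tet1. The lowest libraries were plive-Tet1 1 and plive-Con 2, one of each group, and the log2 fold change was -0.02 ± 0.220 (SE). Ugt1a6b, which conjugates planar phenols, measured 16.1, 11.0, 14.9 and 9.64 FPKM in plive-Con and 11.1, 16.1, 20.6 and 15.6 FPKM in plive-Tet1, a log2 fold change of 0.25 ± 0.205. It was 0.14 without plive-Con 4, 0.15 without plive-Con 2 and 0.07 without plive-Tet1 3. Ugt1a9 measured 13.7, 9.23, 11.3 and 9.25 FPKM against 5.78, 10.2, 18.1 and 9.82 FPKM, and its extremes were both plive-Tet1 libraries, 1 and 3.

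The other 3 tested Ugt1a genes were scarcer. Ugt1a5 measured 1.80 to 3.62 FPKM in plive-Con and 2.13 to 4.35 FPKM in plive-Tet1, with a log2 fold change of 0.24 ± 0.285 that ran from 0.07 (without plive-Tet1 3 or without plive-Con 2) to 0.41, and was 0.11 without plive-Con 4. Ugt1a6a stood at 0.75 to 1.79 FPKM and had a log2 fold change of -0.15, and Ugt1a7c stood at 0.12 to 0.57 FPKM and had 0.09. plive-Tet1 3 was the highest of the 8 libraries in 4 of the 6 tested Ugt1a genes, against 13.8% of all tested genes. Since these genes share exons, their common course is not independent from gene to gene. The untested 3, Ugt1a2, Ugt1a8 and Ugt1a10, had means under 0.1 FPKM and were not tested.

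The Ugt2b and Ugt3a enzymes, which conjugate steroids, bile acids and drugs, had group means close to each other and a common pattern by library. Ugt2b5 (ENSMUSG00000054630, GRCm39 chromosome 5, 87272819 to 87288177, minus strand) measured 275, 296, 341 and 197 FPKM in plive-Con and 270, 264, 244 and 321 FPKM in plive-Tet1. Ugt2b36 (ENSMUSG00000070704, GRCm39 chromosome 5, 87213786 to 87240414, minus strand) measured 180, 193, 238 and 125 FPKM in plive-Con and 172, 160, 164 and 226 FPKM in plive-Tet1. In both genes plive-Con held the highest library, replicate 3, and the lowest, replicate 4, so that the plive-Tet1 values lay inside the range of the controls. The log2 fold changes were -0.06 ± 0.172 for Ugt2b5 and -0.08 ± 0.194 for Ugt2b36.

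Ugt3a2, a member of the small family that in human uses sugar donors other than UDP-glucuronate, measured 119, 85.9, 128 and 74.4 FPKM in plive-Con and 88.2, 108, 113 and 120 FPKM in plive-Tet1. Its relative Ugt3a1 measured 8.64 to 19.0 FPKM in plive-Con and 11.0 to 18.3 FPKM in plive-Tet1. Both had a log2 fold change near 0, at 0.02 ± 0.188 and 0.04 ± 0.234. Ugt2b1 had 0.10 ± 0.171, Ugt2b34 -0.12 ± 0.160, Ugt2a3 -0.15 ± 0.182 (-0.29 without plive-Con 4 and -0.01 without plive-Con 3) and Ugt2b37, a scarce transcript of 0.06 to 1.12 FPKM, -0.21 ± 0.514. Ugt2b35 measured 85.6, 85.5, 82.8 and 87.5 FPKM in plive-Tet1 and 91.4, 90.9, 91.7 and 54.8 FPKM in plive-Con, where only replicate 4 lay below the plive-Tet1 range. Ugt2a1 and Ugt2a2 were at 0 in every library.

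In plive-Con 4, all 10 tested Ugt2a, Ugt2b and Ugt3a genes had their lowest value of the 8 libraries. Across all tested genes that library was the lowest in 23.4%, and across the 42 conjugating enzymes in 19, or 45.2%. The 10 genes lay on chromosomes 5 and 15, so the pattern was not limited to one cluster. The median log2 ratio of plive-Con 4 to the mean of the other plive-Con libraries was -0.69 in these 10 genes, -0.40 in the Ugt1a genes, -0.48 in the Sult genes, 0.03 in the Gst genes and -0.07 over all tested genes. The scarce Ugt2b37 and Ugt2b38 were at 0.06 and 0.21 FPKM in plive-Con 4, against 0.52 to 1.12 and 1.21 to 1.67 FPKM in the other controls. This was a single library, so the pattern has no replicate check.

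**Figure D3:**
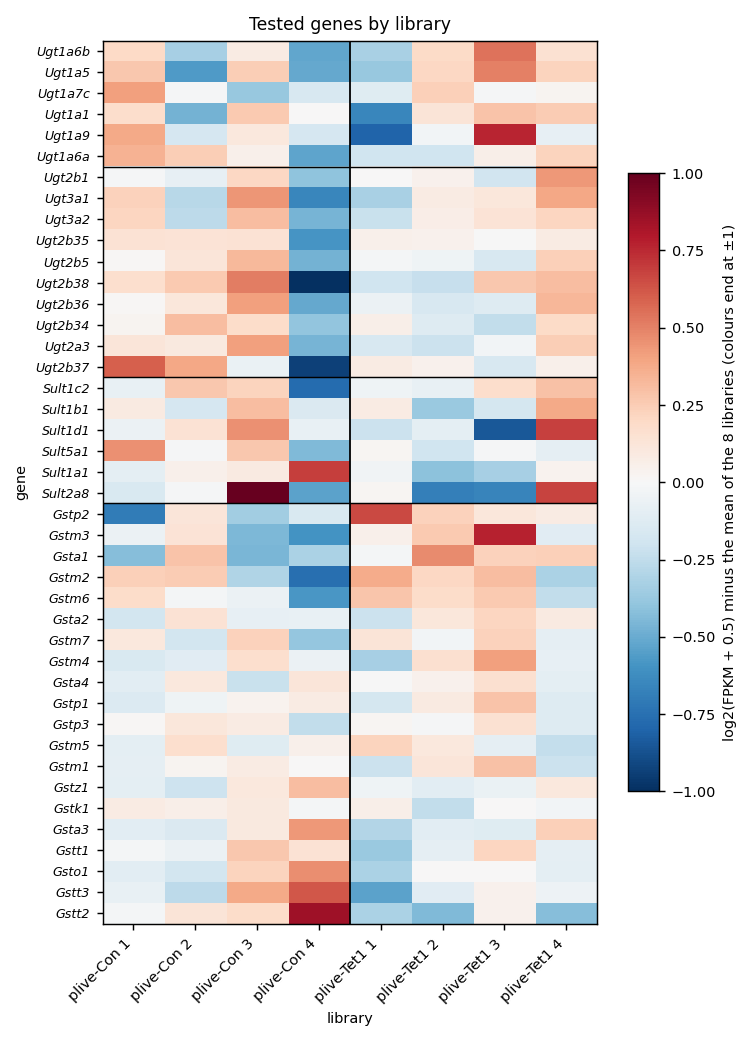
Heat map of the 42 tested genes (rows, grouped by family, lines between families) in the 8 libraries (columns, plive-Con left of the line), coloured by log2(FPKM + 0.5) minus the gene's mean, with colours ending at ±1. In the column of plive-Con 4, the 10 Ugt2a, Ugt2b and Ugt3a rows are all blue, while Gstt2, Gstt3, Gsto1, Gsta3 and Sult1a1 are red.

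The same library was the highest of the 8 in 6 of the 42 genes (14.3%, against 13.7% of all tested genes). It measured 34.6 FPKM of Gstt2, 6.92 of Gstt3, 67.8 of Gsto1, 296 of Gsta3, 148 of Gstz1 and 272 of Sult1a1. The first 5 are glutathione transferases of the theta, omega, alpha and zeta classes, and Gstz1 serves tyrosine breakdown as maleylacetoacetate isomerase. Other genes moved with this library. Of 14 tested male-biased liver genes outside the conjugating enzymes, 13 were lowest in plive-Con 4. The list summed to 1492 FPKM there and 3301 to 5495 FPKM in the other libraries. Most of that sum was Mup20, at 2121.9 to 4550.5 FPKM in the other libraries and 1216 FPKM in plive-Con 4. Of 7 tested female-biased genes, 6 were highest there, and the list summed to 264 FPKM against 16.8 to 46.4 FPKM elsewhere. Of that sum in plive-Con 4, Cyp2a4 held 148 FPKM, Cyp2b9 62.8 and Acot3 39.3. With the untested genes of the list, 8 of 14 were highest in plive-Con 4. Cyp3a44 was highest in plive-Con 2, A1bg and Hao2 were at 0 in plive-Con 4, and Cyp3a41a and Cyp3a41b were at 0 in every library. No red cell, immune or duct marker list had its highest sum in this library. The 5 intestinal epithelium markers did, at 138.8 FPKM against 70.01 to 135.15 FPKM elsewhere. Of these markers 1 was highest in plive-Con 4, Fabp2, at 130 FPKM. The part that sex-biased expression plays in the values of the conjugating enzymes was not tested.

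**Figure D4:**
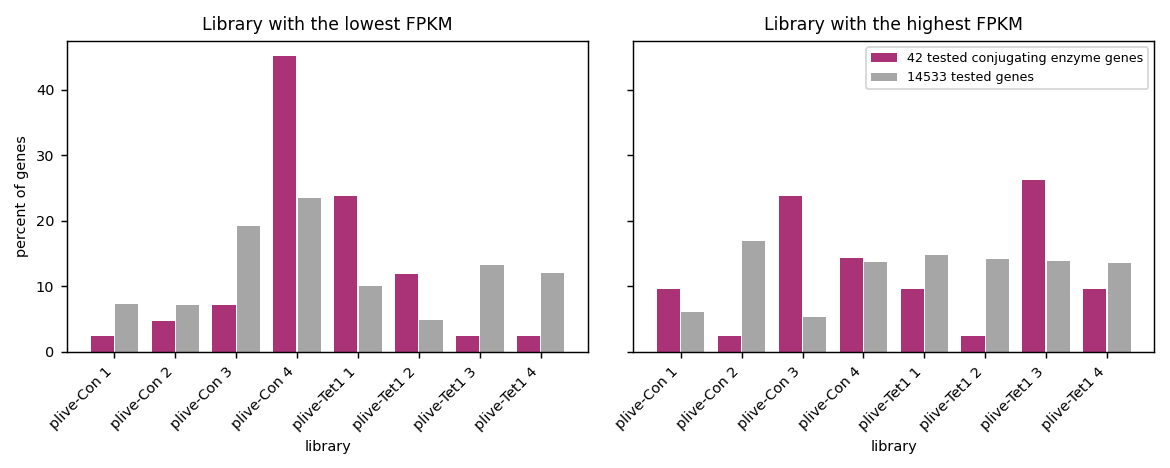
Percent of genes for which each library had the lowest FPKM (left) or the highest FPKM (right), for the 42 tested conjugating enzyme genes and for all 14533 tested genes. plive-Con 4 was lowest in 45.2% of the conjugating enzymes and 23.4% of all genes, and plive-Tet1 3 was highest in 26.2% and 13.8%.

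In the sulfotransferases, 5 of the 6 tested genes had lower values in plive-Tet1. Sult1a1 (ENSMUSG00000030711, GRCm39 chromosome 7, 126272037 to 126275604, minus strand) measured 157, 174, 179 and 272 FPKM in plive-Con and 164, 127, 133 and 173 FPKM in plive-Tet1. The groups overlapped, since plive-Con 1 lay below plive-Tet1 1 and 4. The log2 fold change was -0.44 ± 0.190 (SE, adjusted p = 1), and it was -0.23 without plive-Con 4. Sult2a8, a hydroxysteroid and bile acid sulfotransferase of the mouse, measured 26.5, 29.2, 75.5 and 20.2 FPKM in plive-Con and 29.8, 18.1, 18.4 and 47.3 FPKM in plive-Tet1. Its log2 fold change of -0.47 ± 0.407 rested on plive-Con 3 and became 0.13 without that library.

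Sult1d1, which sulfates catecholamines, measured 22.1, 25.6, 32.0 and 22.0 FPKM in plive-Con and 19.9, 21.6, 12.7 and 37.5 FPKM in plive-Tet1. The plive-Tet1 libraries enclosed all the controls, and the log2 fold change was -0.20 ± 0.266. It was -0.02 without plive-Tet1 3 and -0.56 without plive-Tet1 4. Sult5a1 had -0.27 ± 0.222 at 1.26 to 2.78 FPKM, with -0.44 without plive-Con 4 and -0.10 without plive-Con 1, and Sult1c2 had 0.11 ± 0.243 at 1.77 to 4.23 FPKM. Sult1b1, which sulfates thyroid hormone, measured 5.66 to 8.08 FPKM in plive-Con and 4.85 to 8.52 FPKM in plive-Tet1. Of the remaining 15 sulfotransferases, which were not tested, 5 were at 0 throughout.

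Among those 15 were transcripts known as female-predominant in mouse liver. Sult3a1 and Sult3a2 were at 0 counts in every library, plive-Con 4 included. Sult2a1 collected 10 counts in plive-Con 4 and between 0 and 2 in the other libraries, and Sult2a2 collected 20 counts there and between 1 and 7 elsewhere. These genes and Sult2a5 share part of their transcripts, so the split among them is uncertain. Sult1e1, the estrogen sulfotransferase, measured 0.23, 0.15, 0.18 and 0.32 FPKM in plive-Con and 0.87, 0.30, 0.41 and 0.49 FPKM in plive-Tet1. Its lowest plive-Tet1 library lay under the highest control.

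The glutathione transferases held 4 of the 5 genes with an unadjusted p under 0.05, in both directions. Gstt2 (ENSMUSG00000033318, GRCm39 chromosome 10, 75666948 to 75673258, minus strand), of the theta class, measured 18.8, 20.9, 21.7 and 34.6 FPKM in plive-Con and 15.2, 13.9, 19.6 and 14.1 FPKM in plive-Tet1. The groups overlapped by 1 pair of libraries, plive-Con 1 and plive-Tet1 3. The means were 24.0 ± 7.17 and 15.7 ± 2.68 FPKM (SD, n = 4 each), and the log2 fold change was -0.66 ± 0.198 (edgeR adjusted p = 1). Without plive-Con 4 it was -0.42. When no filter on low counts was applied, edgeR called Gstt2 at an adjusted p of 0.00355, among 132 of 28149 genes (0.469%, with 0.352% in its direction). With the filter its unadjusted edgeR p was 0.00521. Of the other theta enzymes, which lie in the same cluster on chromosome 10, Gstt3 had -0.46 ± 0.228, and -0.26 without plive-Con 4. Gstt1, which acts on small halogenated compounds, had means of 114 ± 12.3 FPKM in plive-Con and 102 ± 17.1 FPKM in plive-Tet1.

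Of the pi class, Gstp2 (ENSMUSG00000038155, GRCm39 chromosome 19, 4090285 to 4096023, minus strand) measured 3.71, 6.90, 4.85 and 5.62 FPKM in plive-Con and 10.3, 7.49, 6.88 and 6.70 FPKM in plive-Tet1. In FPKM, plive-Con 2 lay above plive-Tet1 3 and 4. In CPM the values were 4.17, 7.35, 5.76 and 6.51 against 11.3, 7.98, 7.60 and 7.52, and the groups did not overlap, by a margin of 7.35 to 7.52. The log2 fold change was 0.53 ± 0.210 (edgeR adjusted p = 1). Gstp1, whose reads can be shared with it, had a mean of 456 FPKM against 6.56 and measured 412, 440, 465 and 481 FPKM in plive-Con and 401, 484, 552 and 414 FPKM in plive-Tet1. Its log2 fold change was -0.01 ± 0.143. Gstp3 had means of 40.7 ± 4.42 FPKM in plive-Con and 41.2 ± 3.34 FPKM in plive-Tet1.

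The alpha class handles lipid peroxides and aldehydes. Gsta1 (ENSMUSG00000074183, GRCm39 chromosome 9, 78137938 to 78149966, plus strand) measured 22.5, 37.0, 22.0 and 24.2 FPKM in plive-Con and 29.95, 42.2, 35.7 and 35.8 FPKM in plive-Tet1. All plive-Tet1 libraries were above 3 of the controls, and plive-Con 2 lay above 3 of the plive-Tet1 libraries. The log2 fold change was 0.41 ± 0.160 (edgeR adjusted p = 1). Gsta2, which shares transcript sequence with Gsta1, stood at 50.5 to 63.6 FPKM in plive-Con and 49.6 to 66.8 FPKM in plive-Tet1. Gsta4, which conjugates 4-hydroxynonenal, stood at 60.5 to 76.8 FPKM and 66.2 to 79.0 FPKM. Gsta3, which in mouse detoxifies the epoxide of aflatoxin, measured 204, 198, 234 and 296 FPKM in plive-Con and 179, 204, 202 and 258 FPKM in plive-Tet1, with replicate 4 the highest in both groups.

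All 7 genes of the mu class were tested. Gstm1 measured 1356, 1467, 1523 and 1444 FPKM in plive-Con and 1241, 1567, 1765 and 1241 FPKM in plive-Tet1, so the plive-Tet1 libraries enclosed the controls. Its means of 1447 ± 69.4 and 1453 ± 258 FPKM gave a log2 fold change of -0.04 ± 0.154. Gstm3 (ENSMUSG00000004038, GRCm39 chromosome 3, 107871012 to 107876599, minus strand) measured 244, 279, 186 and 168 FPKM in plive-Con and 264, 305, 433 and 234 FPKM in plive-Tet1. The groups overlapped, with plive-Con 1 and 2 above plive-Tet1 4. The log2 fold change was 0.46 ± 0.197 (edgeR adjusted p = 1), and 0.22 without plive-Tet1 3. Gstm2 had means of 83.9 ± 26.2 FPKM in plive-Con and 99.8 ± 19.7 FPKM in plive-Tet1, and Gstm6 had 44.5 ± 9.41 and 52.1 ± 8.22 FPKM. Both were lowest in plive-Con 4, as were Gstm3 and Gstm7. Gsto1, which reduces dehydroascorbate, had -0.28 ± 0.166, and -0.13 without plive-Con 4.

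**Figure D5:**
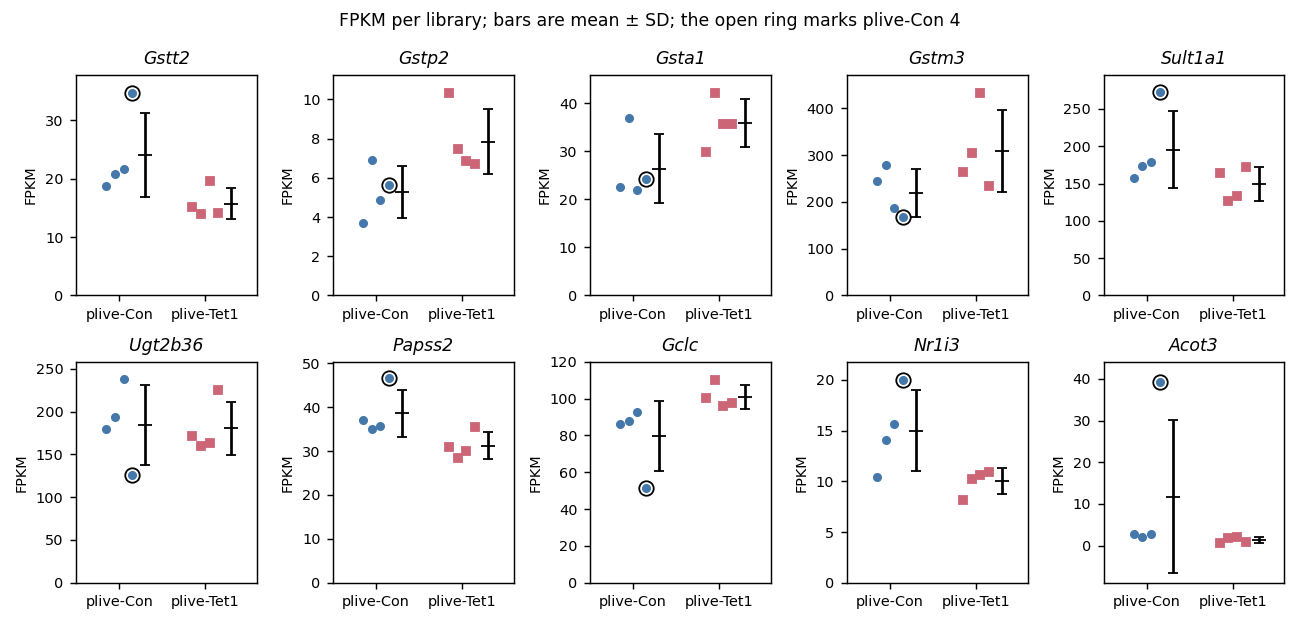
FPKM of 6 conjugating enzyme genes and of Papss2, Gclc, Nr1i3 and Acot3 in each library (circles plive-Con, squares plive-Tet1), with mean ± SD beside each group (n = 4) and an open ring around plive-Con 4. That library is the highest control for Gstt2, Sult1a1, Papss2, Nr1i3 and Acot3 and the lowest for Gstm3, Ugt2b36 and Gclc.

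The genes that supply the donors had 0 members passing the test in either direction. All 5 listed genes around UDP-glucuronate were tested. Ugp2, which makes UDP-glucose, measured 128, 119, 139 and 82.0 FPKM in plive-Con and 113, 92.1, 88.1 and 134 FPKM in plive-Tet1, a log2 fold change of -0.18 ± 0.188, or -0.31 without plive-Con 4, -0.32 without plive-Tet1 4 and -0.08 without plive-Con 3. Ugdh, which oxidises UDP-glucose to UDP-glucuronate, was lowest in plive-Con 4 at 26.9 FPKM against 39.3 to 48.7 FPKM elsewhere. Gusb, the lysosomal beta-glucuronidase that removes the conjugate, measured 17.25, 15.7, 10.8 and 15.7 FPKM in plive-Con and 18.8, 21.2, 17.62 and 17.59 FPKM in plive-Tet1. Its groups did not overlap in FPKM, as in 1.93% of all tested genes in that direction, and the log2 fold change was 0.29 ± 0.137 (adjusted p = 1), or 0.16 without plive-Con 3. Of 9 macrophage markers, 6 had higher values and 0 passed, and their summed level was 449 to 525 FPKM in plive-Con and 510 to 641 FPKM in plive-Tet1; their part in the value of Gusb was not tested.

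Of 7 tested genes of sulfate supply, Papss2, the synthase of the sulfate donor PAPS in liver, measured 37.1, 35.0, 35.7 and 46.6 FPKM in plive-Con and 30.9, 28.5, 30.0 and 35.6 FPKM in plive-Tet1. The log2 fold change was -0.35 ± 0.140 (adjusted p = 1), and -0.24 without plive-Con 4. Papss1, its scarcer relative at 4.19 to 6.83 FPKM, had 0.27 ± 0.138. Of 15 tested genes of glutathione synthesis and recycling, Gclc, the catalytic subunit of the rate-limiting ligase, measured 86.0, 87.9, 92.9 and 51.4 FPKM in plive-Con and 100.2, 110.3, 95.8 and 97.5 FPKM in plive-Tet1. The groups did not overlap in FPKM but did in CPM, and the log2 fold change of 0.30 ± 0.168 was 0.14 without plive-Con 4. Oplah, which returns 5-oxoproline to glutamate, had -0.42 ± 0.201 and -0.24 without plive-Con 4, and Txnrd1, thioredoxin reductase, had 0.19 ± 0.119.

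Other conjugating and glutathione enzymes also had 0 members passing. Of 13 tested transferases of other kinds, 5 had higher and 8 had lower values, or 3 and 10 without plive-Con 4. Inmt, an indole and thioether methyltransferase, measured 77.8, 82.9, 107 and 166 FPKM in plive-Con and 49.0, 50.6, 67.1 and 78.7 FPKM in plive-Tet1. Only plive-Con 1 lay below a plive-Tet1 library, and the log2 fold change was -0.87 ± 0.248 (adjusted p = 1), or -0.58 without plive-Con 4. Without a filter on low counts, edgeR called it at an adjusted p of 1.26e-05, and DESeq2 gave 0.239. With the filter its unadjusted edgeR p was 0.00375. Nnmt, the nicotinamide methyltransferase, had -0.36 ± 0.213, and -0.11 without plive-Con 4. Of 10 tested microsomal and related glutathione enzymes, Hpgds, the prostaglandin D synthase, had 0.65 ± 0.261 at 0.50 to 1.39 FPKM, and Clic4, a chloride channel protein with a GST fold, had 0.14 ± 0.121.

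The regulators had 7 higher and 9 lower values among 16 tested, and 0 passed; without plive-Con 4 the counts were 11 and 5. Nr1i3, the receptor CAR, measured 10.4, 14.1, 15.6 and 19.96 FPKM in plive-Con and 8.13, 10.2, 10.7 and 11.0 FPKM in plive-Tet1. Its groups overlapped through plive-Con 1, and the log2 fold change was -0.64 ± 0.189 (adjusted p = 1), or -0.46 without plive-Con 4. Without a filter on low counts, edgeR called it at an adjusted p of 0.00758, and DESeq2 gave 0.469. With the filter its unadjusted edgeR p was 0.00495. Of 11 tested CAR and PXR targets outside the conjugating enzymes, 9 had lower values. Among them were Cyp2b9 at -1.57 ± 0.448, which is also on the female-biased list, and Cyp2c37 at -1.17 ± 0.343. Without plive-Con 4 they had -0.84 and -0.83. The 2 with higher values were Cyp2c55 at 0.81 ± 0.365 and Cyp3a11 at 0.17 ± 0.190. Cyp2b10, at 0.14 to 0.3 FPKM, had too few counts to be tested. plive-Con 4 was the highest of the 8 libraries in 7 of the 11, and 7 of 11 values were lower without it. edgeR without a filter called both Cyp2b9 and Cyp2c37, at adjusted p of 7.45e-17 and 2.62e-10, and DESeq2 gave both 0.999. With the filter neither passed, and their unadjusted edgeR p was 0.00398 and 0.00485. Of 11 tested NRF2 targets, 9 had higher values, among them Gclc and Txnrd1, and 10 did without plive-Con 4. None of the 11 had an unadjusted edgeR p under 0.05, and 51.96% of all tested genes had higher values. In the conjugating enzymes themselves, 17 of 42 values were higher.

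The sex-biased genes that stood out in plive-Con 4 were tested in the same comparison, and 0 passed edgeR's test with the filter on low counts. Acot3, an acyl-CoA thioesterase with higher levels in female mouse liver, measured 39.3 FPKM in plive-Con 4 and 0.56 to 2.83 FPKM in the other 7 libraries. Cux2, a female-predominant repressor of male-biased genes, measured 0.95 FPKM against 0.03 to 0.07. Without plive-Con 4 the log2 fold changes moved from -3.21 to -0.9999 for Acot3 and from -2.85 to -0.55 for Cux2. With all libraries and no filter, edgeR called Acot3 at an adjusted p of 2.73e-43 and Cux2 at 1.76e-09. DESeq2 gave neither an adjusted p, and edgeR with the filter gave unadjusted p of 0.00302 and 0.0101. Of the 14 tested male-biased genes, 8 had higher and 6 had lower values, or 3 and 11 without plive-Con 4. Cyp4a12a of that list, a fatty acid hydroxylase, was lowest in plive-Con 1. It measured 14.6, 15.5, 19.1 and 16.4 FPKM in plive-Con and 34.7, 28.5, 38.5 and 30.4 FPKM in plive-Tet1. Its log2 fold change was 0.96 ± 0.145 with an adjusted edgeR p of 0.271. Its near copy Cyp4a12b had 0.97 ± 0.215. DESeq2 called both, at adjusted p of 6.26e-05 and 0.0437, as did edgeR without a filter, at 7.07e-07 and 6.14e-06.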

How the data were processed

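The authors deposited 1 table of counts and FPKM per gene for 8 libraries. Per the submitters' processing notes, the tools were cutadapt 1.9.1, HISAT2 2.2.1 and HTSeq 0.6.1 with GRCm39. No source used here gives the strand setting, the annotation release or the handling of shared reads. The deposited FPKM equalled count, exonic size and library total to within 0.005. Counts were tested with edgeR 4.0.16 (R 4.3.3; TMM, filterByExpr, quasi-likelihood test, two-sided, Benjamini-Hochberg over all tested genes, threshold 0.05); standard errors are the log2 fold change divided by the square root of F. DESeq2 1.42.0, limma 3.58.1 on log2(FPKM + 0.5) or + 1, limma voom (added after seeing the data), no filter, a replicate block and leaving out each library were alternatives. The test was tested on simulated data.

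The members and lists were chosen with earlier results of these data known. Named were, per family, the 3 most abundant members and the 3 smallest p in each direction, members called or not overlapping, and 2 genes per other list; further genes were named after their values were seen. Libraries of one group differed by more than sampling noise (chi-square over its degrees of freedom, 12.9 to 77.6). Sts and Tf were not analysed here, and 1 gene of a list is not reported here.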

Additional observations from a re-analysis of the deposited data

Results flagged for a closer look

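This count covered the 42 tested conjugating enzymes and the 18 other genes named by rule, and not genes such as Ugdh and Cyp2a4. In 6 of those covered, 1 control library lay far from the other 3. The gap was above Dixon's 95% critical value for 4 values, and chance marks about 1 in 20 groups. Such a library was found for 3 of the 42 tested conjugating enzymes in plive-Con (7.14%, against 5.59% of all tested genes) and for 0 in plive-Tet1 (4.79% of all genes). Ugt2b35, a glucuronosyltransferase, measured 54.78 FPKM in plive-Con 4 against 90.9 to 91.7 FPKM in the other controls. Gsta1 measured 37.01 FPKM in plive-Con 2 against 22.0 to 24.2 FPKM. Sult2a8 measured 75.48 FPKM in plive-Con 3 against 20.2 to 29.2 FPKM. Among the other genes, plive-Con 4 measured 51.39 FPKM of Gclc, 39.29 FPKM of Acot3 and 0.95 FPKM of Cux2. These are values of single libraries, and what sets them apart was not tested.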

How the results depend on the processing

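The count of genes called was 0 by edgeR and changed to 11 with DESeq2 and to 132 without a filter on low counts. Of these 132, 119 were genes that passed the filter and were tested in the main fit. The fit without a filter called 1 conjugating enzyme, Gstt2, and the cause was not tested. The count was 0 for all genes and for the conjugating enzymes with DESeq2's size factors in edgeR, with both limma fits on FPKM, with limma voom and without any 1 library (lowest and highest 0). The replicate numbers did not pair the libraries: correlations of same-numbered libraries were -0.0405 to 0.0691. With the replicate block, 0 genes and 0 conjugating enzymes were called, and 616 genes, 6 of them conjugating enzymes, had an unadjusted p under 0.05, against 591 and 5. Of 60 family medians under the alternatives, 0 moved by more than the SD between libraries of a group. That SD was 0.335 for Ugt1a, 0.275 for Ugt2 and Ugt3, 0.298 for Sult and 0.111 for Gst. It was wider than each median itself, so this is a weak check. Leaving out 1 library reversed the median of every family but Sult. Of 675 log2 fold changes of 45 named genes under the alternatives, 625 kept direction and side of the threshold, 39 reversed and 11 passed it. Other reversals were as follows: with limma on log2(FPKM + 0.5) and + 1, Gstp1 had 0.03218 and 0.03216, Ugt1a1 0.01345 and 0.0136 and Ugt2b5 0.00722 and 0.007163, and Ugt2b37 had 0.008001 with the pseudocount 0.5, 0.001195 with the replicate block and 0.3106 with voom, against -0.21. On that FPKM scale the median of all genes was 0.04. Leaving out 1 library at a time gave log2 fold changes of -0.18 to 0.025 for Gstm1, -0.13 to 0.054 for Gstp1, -0.091 to 0.23 for Sult1c2, -0.85 to 0.13 for Sult2a8, -0.18 to 0.15 for Ugt1a1, -0.35 to 0.00049 for Ugt1a6a, -0.19 to 0.61 for Ugt1a7c, -0.41 to 0.18 for Ugt1a9, -0.053 to 0.20 for Ugt2b1, -0.22 to 0.077 for Ugt2b36, -0.58 to 0.20 for Ugt2b37, -0.19 to 0.060 for Ugt2b5, -0.12 to 0.24 for Ugt3a1 and -0.10 to 0.15 for Ugt3a2. With 4 libraries a group a median 95% interval of 0.41 to either side limits what the comparison can show.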
